A study of Canis lupus familiaris with 5 samples.

Results

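The metallothionein genes MT2A and MT1E, with MTF1, the zinc-sensing factor that switches them on, were followed across 5 canine lymphoid cell lines. Members were the genes MT2A, MT1E, MTF1 and SLC30A1, found by gene symbol in the annotation of the array's probe sets. A probe set is a group of short probes that reports 1 transcript. MT2A, MT1E and MTF1 had 1 probe set each, which makes 3 of the 15115 genes with a symbol, and no probe set carried the symbol SLC30A1. The members were chosen by their values on these arrays, which were low for the metallothioneins in CL-1, so the difference between CL-1 and the other lines is described here and not tested.

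CL-1 is labelled a primitive alpha/beta T-cell leukemia line. Line 17-71 is labelled as a B-lymphoid malignancy, GL-1 as a B-cell leukemia, CLGL-90 as a leukemia of large granular lymphocytes (LGL) and CLL-1390 as a primitive T-cell leukemia. All 5 were untreated and grown in RPMI with 10% FBS, and total RNA of each went onto 1 Affymetrix canine array. Each line stands for itself, with no replicate array. The deposited values are log2 intensities, on which a step of 1 is a factor of 2.

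Metallothioneins are small proteins rich in cysteine that bind zinc and copper, and also cadmium. They buffer the supply of these metals inside the cell and take up reactive oxygen species. Zinc that enters the cell activates MTF1, which binds metal response elements in metallothionein promoters and in that of SLC30A1, the zinc exporter of the plasma membrane. Glucocorticoids also induce MT2A in human cells.

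Arrays had medians of 6.87 to 6.996. On each array 59 control probe sets for sequences that dogs lack serve as a guide to background: their median was 4.07 to 4.29 and their highest value 6.39 to 6.76. Among 8 T-cell markers, 5 lay above the highest such control in CL-1. CD247 stood at 11.16 and CD28 at 11.06 in CL-1, which was the highest line for both. In contrast CD3D (5.44) and CD3G (5.34), subunits of the T-cell receptor complex, lay within the range of the controls. Also above it was LCK, at 8.88 in CL-1, against 5.58 in 17-71 and 10.65 to 11.78 in the other lines. The remaining pair of the 5, CD3E (7.81) and CD5 (7.52), were above the highest control in every line and lowest in CL-1. The count by itself is therefore a weak guide to the T-cell label. B-labelled GL-1 had 6 of the 8 above the highest control, CD3D (9.78) and CD3G (10.01) among them. In B-labelled 17-71, 3 of the 8 lay above it, with CD2 at 11.42. CD2 read 12.59 in CLGL-90 and 6.15 in CL-1, where it lay within the range of the controls. Of 6 B-cell markers on the array, 1 lay above the highest control in CL-1 (PAX5, 6.83, with 6.99 to 7.18 in the other lines).

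MT2A was at background in CL-1 and abundant in every other line. Its probe set read 4.79 in CL-1, against 10.49 in 17-71, 11.91 in GL-1, 12.08 in CLGL-90 and 11.04 in CLL-1390. CL-1 stood apart from a group of 4 lines that spanned 1.59 among themselves. The CL-1 value lay between the median (4.07) and the maximum (6.39) of the controls on its array, and 14.6% of all probe sets on that array were lower. In the other lines MT2A was brighter than 89.2 to 96.9% of probe sets. CL-1 was 6.68 below the median of the other 4 lines and 5.70 below the nearest, 17-71. With CL-1 set to its highest control, the mean of the other lines (11.38 ± 0.75, SD over 4 lines) was at least 31.8-fold brighter. A smaller share of expressing cells and less transcript per cell cannot be told apart in RNA from a whole culture. Whether the MT2A probe set responds in CL-1 was not tested.

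MT1E gave the same lowest line and a wider spread among the others. It read 4.82 in CL-1, against 7.90 in 17-71, 9.80 in GL-1, 7.08 in CLGL-90 and 10.19 in CLL-1390. Again CL-1 lay inside the range of the controls, while CLGL-90 was just above the highest control of its own array (6.76). The other lines averaged 8.74 ± 1.495 (SD over 4 lines) and spanned 3.12. CL-1 was 4.03 below their median and 2.26 below the nearest, CLGL-90. The mean of the other lines was at least 5.11-fold above the highest control on the CL-1 array, and CLGL-90 alone at least 1.61-fold.

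MTF1 hardly varied. Its probe set stood at 7.97 in CL-1, against 8.23 in 17-71, 8.20 in GL-1, 8.18 in CLGL-90 and 8.10 in CLL-1390. All 5 values lay above the highest control, within 0.27 of each other, and a smaller range was found in 8.10% of tested probe sets. CL-1 was again the lowest, by 0.13, but 36.8% of the 14162 genes tested had CL-1 as their lowest line. Since no line shows that this probe set responds, its even level does not establish that MTF1 transcript was present in equal amounts.

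**Figure D1:**
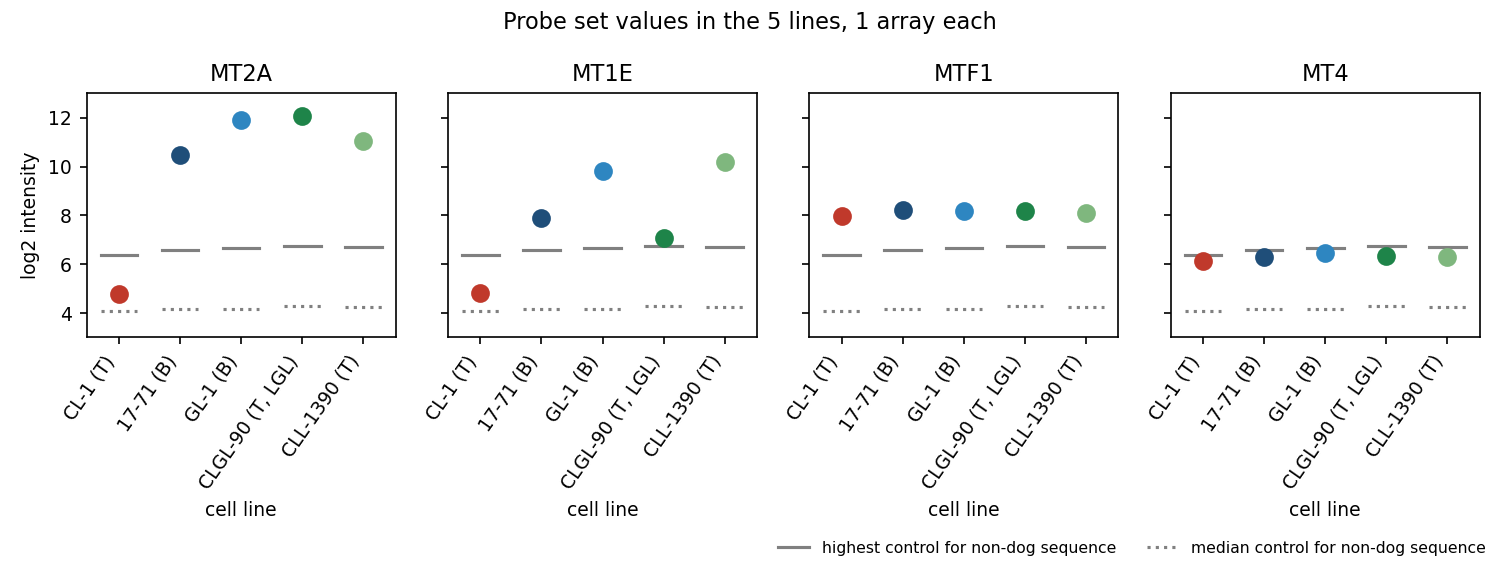
Log2 intensity (y axis) of the probe sets of MT2A, MT1E, MTF1 and MT4 in each line (x axis), 1 point per array, with grey bars for the highest (solid) and median (dotted) control for non-dog sequence on that array. MT2A and MT1E lie under the solid bar in CL-1 and above it in the other 4 lines, MTF1 is level at 7.97 to 8.23, and MT4 is under the bar in every line.

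The other metallothionein on the array was MT4, a form of stratified epithelium known from mouse and human. Its probe set read 6.12 in CL-1 and 6.30 to 6.45 in the other lines, under the highest control of each array, so it cannot be told from background in any line. Of the 13 metallothionein symbols looked up, MT1E, MT2A and MT4 were found. The gene called MT-III in the reference, and a protein-coding gene without a name (LOC100686073) directly beside MT1E, had no annotated probe set. The suffix of the MT1E probe set marks probes that match more than 1 transcript, and metallothionein genes are close copies of each other. Its signal may therefore include related transcripts, and neither MT1E nor MT2A had another probe set to compare with. The probe sets of MTF1 and MT4 carry the same suffix, so their signals may also include other transcripts.

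The ranking of the lines differed between MT2A and MT1E. MT2A ran from CLGL-90 (12.08) through GL-1, CLL-1390 and 17-71 to CL-1. MT1E ran from CLL-1390 (10.19) through GL-1, 17-71 and CLGL-90 to CL-1. CLGL-90 was thus the highest line for MT2A and the next to lowest for MT1E.

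Without replicates, the steps in these rankings can only be set beside the differences between the same arrays over all 36661 tested probe sets. The step in MT2A between CLGL-90 and GL-1 (0.18) was matched or exceeded by 67.7% of probe sets, and that between CLL-1390 and 17-71 (0.54) by 29.9%. Such steps give no order. GL-1 and CLL-1390 differed by 0.87, as much as 14.3% of probe sets, and the last step, between 17-71 and CL-1 (5.70), was matched by 0.350%. In MT1E the step between CLL-1390 and GL-1 (0.39) was matched by 34.6%, and that between 17-71 and CLGL-90 (0.82) by 16.3%. The larger steps of MT1E lay between GL-1 and 17-71 (1.90, matched by 4.17%) and between CLGL-90 and CL-1 (2.26, matched by 3.77%). Every step of MTF1 (0.03 to 0.13) was matched by 80.2 to 94.5% of probe sets.

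Few probe sets shared the position of the metallothioneins in CL-1. CL-1 was at least 2 below every other line in 126 of 36661 tested probe sets (0.344%), and in 56 of 14162 genes (0.395%). MT2A and MT1E were among them, and MTF1 was not. By the gap to the nearest other line, MT2A ranked 7 and MT1E 44 among genes. These ranks come from the values for which the members were chosen and add no support. The count of genes so low in a single line was 35 in 17-71, 21 in GL-1, 24 in CLGL-90 and 36 in CLL-1390. By the guide to background, 114 genes (0.805%) were under the highest control in CL-1 and above it in all other lines, against 112 genes in 17-71, 184 in GL-1, 151 in CLGL-90 and 159 in CLL-1390 for the same pattern.

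**Figure D2:**
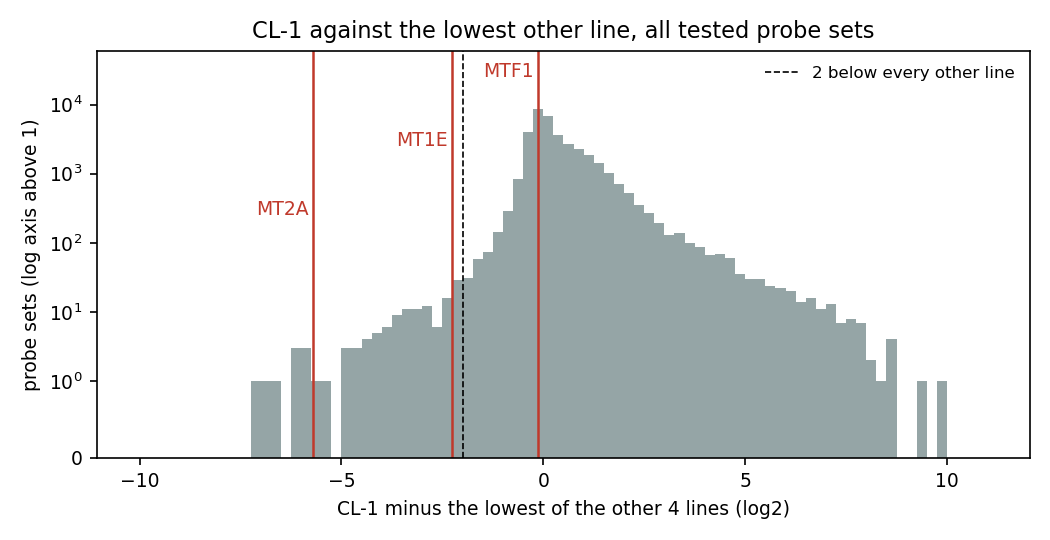
Number of tested probe sets (y axis, logarithmic above 1) by the value of CL-1 minus the lowest of the other 4 lines (x axis, log2), with red lines at the members. MT2A (-5.70) and MT1E (-2.26) lie left of the dashed line at 2 below every other line, which 126 of 36661 probe sets pass, and MTF1 (-0.13) lies at the peak.

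The genes whose profile over the 5 lines was most like that of MT2A, by the root mean square difference of centred values, included LCP2, RBL2, HEBP1 and CDKN2AIPNL (0.56 to 0.82). LCP2, an adaptor of antigen receptor signalling, read 3.99 in CL-1 and 10.08 to 10.70 in the other lines. RBL2, a pocket protein of the retinoblastoma family, read 4.33 in CL-1 and 10.15 to 11.22 in the others. MT1E was only the gene ranked 54 in likeness to MT2A (1.72). The low value in CL-1, for which MT2A was chosen, weighs most in this measure. Likeness to MT2A is therefore largely a matter of being similarly low in CL-1 and adds no support.

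MT1E was closest to LYN, TBXAS1, DTX3L, ELMO1 and TIFA (0.31 to 0.65), none of them among the 5 genes closest to MT2A. In likeness to MT1E, MT2A was the gene ranked 1038 (1.72). MT1E was also chosen for its low value in CL-1, so likeness to it adds no support either. LYN, a Src family kinase, read 6.15 in CL-1, against 9.05 in 17-71, 11.00 in GL-1, 7.97 in CLGL-90 and 10.66 in CLL-1390. It gave the line order of MT1E with GL-1 and CLL-1390 exchanged. TBXAS1, thromboxane synthase, read 6.002 in CL-1, 6.82 in CLGL-90 and 8.09 to 10.83 in the other 3 lines. DTX3L, a ubiquitin ligase, and TIFA, an adaptor of NF-kB signalling, stood at 5.76 and 5.22 in CL-1 and at 7.70 and 7.26 in CLGL-90. For MTF1 the closest genes were ACVRL1, IL31RA, LOC477072, ANXA9 and NAALAD2 (0.01 to 0.02), 3 of which lay under the highest control on all arrays (ACVRL1, IL31RA and NAALAD2). The median gene differed from MTF1 by only 0.29, so likeness to MTF1 says little more than that a profile is flat.

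MT1E and MT2A lie side by side in the dog reference UU_Cfam_GSD_1.0, with no annotated gene between them, and their neighbours were examined for the same pattern. Of the 20 nearest genes, 10 on each side, 10 had a probe set. None was 2 below every other line in CL-1, by any of its probe sets (25 in all). By the brightest probe set of each gene, all 10 were nevertheless below the median of the other lines in CL-1, by 0.08 to 1.98. By the same probe sets CL-1 was the lowest line in 8 of them. These include MT4, which could not be told from background in any line. Over all genes tested CL-1 was below that median in 57.2% and lowest in 36.8%, and 17-71 was the lowest line in the other 2 genes. Not every probe set of these neighbours had CL-1 lowest. It was lowest in 3 of 6 for NUP93, 1 of 2 for NLRC5 and 2 of 3 for both PSME3IP1 and BBS2. For SLC12A3, 1 of the other 2 genes, CL-1 was lowest in 2 of 4.

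HERPUD1, a gene of the unfolded protein response, read 10.57 in CL-1, against 13.04 in 17-71, 11.81 in GL-1, 13.10 in CLGL-90 and 12.07 in CLL-1390. PSME3IP1, which encodes a proteasome activator's partner, read 9.43 in CL-1 and 10.75 to 11.44 in the other lines. CL-1 was thus more than 1 below every other line in these 2 genes, and in 0.967% of all genes. OGFOD1, a ribosomal protein hydroxylase, stood at 8.31 in CL-1 and 9.07 to 9.40 elsewhere, and NUDT21, a factor of cleavage and polyadenylation, at 11.53 against 12.17 to 12.47. NLRC5, the activator of MHC class I genes, read 7.08 against 7.68 to 7.81, BBS2, a protein of the primary cilium, 7.56 against 7.83 to 9.19, and NUP93, a nuclear pore protein, 10.32 against 10.38 to 11.69. CPNE2 (7.06 against 6.97 to 7.91) and SLC12A3, a kidney salt transporter (7.47 against 7.44 to 7.66), lay within the range of the other lines. All neighbours but MT4 thus lay above the highest control in CL-1, the nearest being NUP93 on the MT1E side and BBS2 on the MT2A side.

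In wider windows, chosen after the values were seen, the share of genes with CL-1 lowest was 15 of 25 (60.0%) within 25 genes on each side, 24 of 42 (57.1%) within 50 and 37 of 65 (56.9%) within 100. Within 100 genes, CL-1 was at least 2 below every other line in 3 of 65, beside 0.395% of all genes. The count within 50 was 0 of 42. It was at least 1 below in 2 of 42 within 50 and 6 of 65 within 100, beside 0.967% of all genes. The CL-1 array has the lowest median of the 5 (6.87), and with arrays centred on their medians the share of all genes with CL-1 lowest was 28.5%, and the count among the 10 neighbours 7. The shares in the wider windows were taken without this centring, where the share of all genes was 36.8%.

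**Figure D3:**
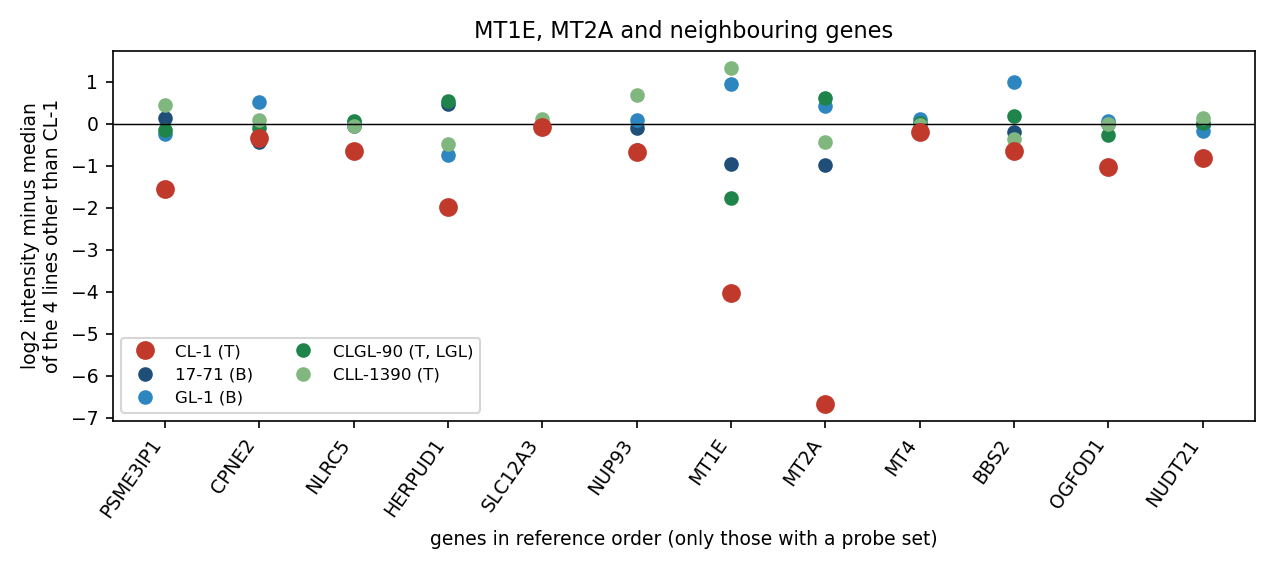
Log2 intensity minus the median of the 4 lines other than CL-1 (y axis) for MT1E, MT2A and the 10 neighbouring genes with a probe set, in reference order (x axis, not to scale), 1 point per line. CL-1 (red) lies below 0 in all 12 genes, by 4.03 in MT1E, 6.68 in MT2A and at most 1.98 in the neighbours.

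Genes of metal supply, and of glutathione, glucocorticoid and heat shock responses, were next set beside the metallothioneins, in lists chosen for their roles. Of 46 zinc, copper and iron genes tested, CL-1 was at least 1 above every other line in 5, a larger share than the 3.5% of all genes (495 of 14162). It was at least 1 below in 0, beside 0.967% of all genes. No test was run on these lists. Of the 31 genes in the other lists, 3 were above and 1 was below by the same measure. Most members of each list did not stand apart in CL-1.

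Zinc importers of the SLC39 (ZIP) family were all on the array, and 2 of 14 were at least 1 higher in CL-1 than in every other line. SLC39A10, which in zebrafish and mouse cells is repressed through MTF1 when zinc is plentiful, read 12.07 in CL-1, against 9.68 in 17-71, 10.69 in GL-1, 9.34 in CLGL-90 and 9.47 in CLL-1390. Its other probe set gave the same picture (11.28 against 8.28 to 9.78). SLC39A14, which carries zinc, iron and manganese, read 9.71 in CL-1 and 6.64 to 6.97 in the other lines, where it was barely above the highest control. Another of its probe sets was also highest in CL-1 (8.24 against 4.64 to 6.33) and the third was flat (6.93 against 7.01 to 7.13). SLC39A9 (8.08 against 6.67 to 8.06) and SLC39A1 (10.14 against 8.72 to 10.19) did not stand clear of the other lines. The median of the list lay 0.27 above the other lines, beside -0.08 over all genes.

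Among zinc exporters of the SLC30 (ZnT) family, 1 of 9 tested was at least 1 higher in CL-1. SLC30A6, a transporter of the secretory pathway, read 8.57 in CL-1, against 7.39 in 17-71, 7.25 in GL-1, 7.08 in CLGL-90 and 6.51 in CLL-1390. SLC30A9 read 10.39 in CL-1 and 8.09 to 9.72 in the others. SLC30A7 (8.78 against 6.94 to 8.53) and SLC30A5 (9.86 against 8.94 to 10.21) overlapped or nearly met the range of the other lines. The list median was -0.05, and no member was at least 1 lower in CL-1.

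Of the 11 copper genes tested, 2 were at least 1 higher in CL-1. SLC31A1, the main copper importer, read 9.53 in CL-1 and 7.53 to 8.501 in the other lines. XIAP, an inhibitor of apoptosis that also takes part in copper regulation, read 8.81 against 5.33 to 6.62, values mostly at background in the other lines. CCS, the copper chaperone of superoxide dismutase, stood at 10.28 against 8.82 to 9.62. ATP7A, a copper exporter, read 6.37 against 5.19 to 5.43 and lay under the highest control on every array.

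No iron gene of 12 stood at least 1 apart. TFRC, the transferrin receptor, read 9.87 in CL-1 and 7.93 to 9.36 in the other lines. FTH1, the heavy chain of ferritin, split the lines in another way: it read 10.58 in CL-1 and 11.14 in CLGL-90. In 17-71, GL-1 and CLL-1390 it read 5.83 to 6.57, under the highest control. FTH1 had 1 probe set, so this split could not be compared with another. IREB2, which controls iron genes after transcription, read 10.33 against 9.03 to 9.73, and SLC25A37, the mitochondrial iron importer, 10.67 against 9.76 to 10.01.

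Metallothioneins share the task of thiol defence with glutathione. GCLM, the modifier subunit of the enzyme that starts glutathione synthesis, read 11.92 in CL-1, against 9.49 in 17-71, 10.80 in GL-1, 10.46 in CLGL-90 and 9.76 in CLL-1390, and was the 1 gene of 14 at least 1 higher. GSR, glutathione reductase, read 11.50 in CL-1 and 8.88 to 11.21 in the others. SLC7A11, the cystine importer, was the lowest in CL-1 (6.27 against 6.77 to 8.17) and lay there under the highest control. NQO1, a quinone reductase, read 9.53 in CL-1 and 10.91 in CLL-1390, above 7.36 to 8.59 in the other 3 lines.

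Glucocorticoid response genes went both ways in CL-1. NR3C1, the glucocorticoid receptor, read 10.70 in CL-1 and 8.63 to 9.66 in the other lines, and its other probe sets were also highest there. TSC22D3, the glucocorticoid-induced leucine zipper gene, read 6.81 in CL-1, against 11.92 in 17-71, 10.45 in GL-1, 10.78 in CLGL-90 and 10.94 in CLL-1390. It was the only gene of these lists with CL-1 at least 1 below all other lines, and its other probe set showed a smaller gap (7.73 against 9.02 to 10.11). SGK1, a kinase induced by glucocorticoids, was the reverse, at 10.36 in CL-1 and 5.92 to 7.72 in the others. ZBTB16, another induced gene, read 8.07 in CL-1, against 11.24 in CLL-1390 and 6.43 to 6.64, under the highest control, in the remaining lines. Its other probe set was flat (7.38 in CL-1 against 7.12 to 7.41).

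Heat shock genes, which toxic metals induce together with metallothioneins, had no member of 8 at least 1 apart in CL-1. BAG3, a co-chaperone, read 9.45 in CL-1 and 10.78 in 17-71, against 4.99 in GL-1, 5.24 in CLGL-90 and 7.08 in CLL-1390. HSF1, the main heat shock factor, read 10.42 in CL-1 and 9.45 to 9.82 in the others, though another probe set was level (9.78 against 9.49 to 9.74). DNAJB1 (9.80 against 8.72 to 10.01) lay within the range of the other lines, and HSP90AA1 (14.08 against 13.08 to 13.95) was close to it.

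**Figure D4:**
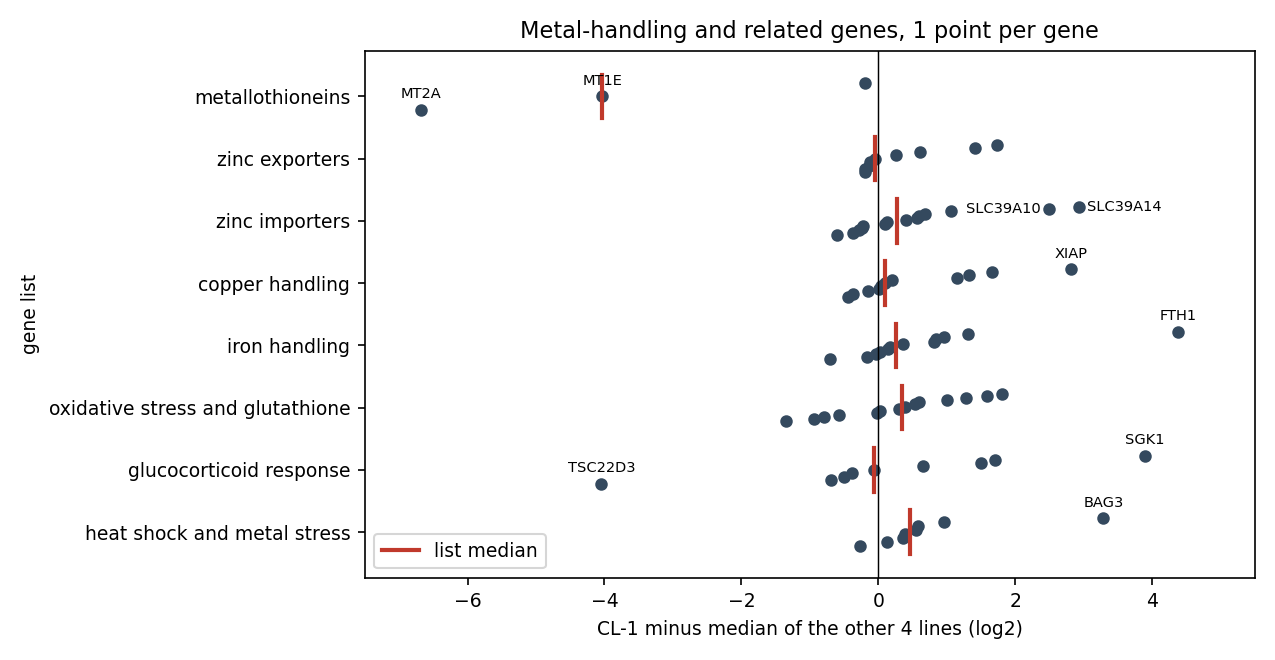
CL-1 minus the median of the other 4 lines (x axis, log2) for each tested gene of 8 lists (rows), 1 point per gene, with the list median as a red bar. MT2A (-6.68), MT1E (-4.03) and TSC22D3 (-4.05) lie far to the left, and SLC39A10, SLC39A14, XIAP, FTH1, SGK1 and BAG3 to the right.

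The lineage label is the only grouping of the samples with more than 1 line on each side, and the metallothionein values of its groups overlapped. Markers go against these labels in part, beginning with the T-cell markers of GL-1 and the CD2 value of 17-71 given above. Of 6 myeloid markers, 6 in 17-71 and 5 in GL-1 were above the highest control, against 2 in each T-labelled line. Among them CD14 was above it in every line and ITGAM in every line but GL-1, so these add little to the counts. Of 6 B-cell markers, 3 were above it in each of 17-71, GL-1 and T-labelled CLGL-90, and 2 in CLL-1390. The lysozyme gene LYZ was at 12.01 to 12.39 in the B-labelled pair and at 3.28 to 4.02 in the T-labelled lines. Their part in the comparison was not tested. MT2A averaged 11.20 ± 0.999 in the B-labelled lines 17-71 and GL-1 (SD, n = 2) and 9.31 ± 3.94 in the T-labelled lines CLGL-90, CLL-1390 and CL-1 (SD, n = 3). In limma over 36661 probe sets, of which 5 passed (0.0136%), the MT2A difference was 1.89 (SE 2.38, adjusted p = 0.9999). Without CL-1 the sign turned, to -0.36 (SE 0.69, 95% interval -2.42 to 1.69, limma adjusted p = 0.902). MT1E averaged 8.85 ± 1.35 in B-labelled lines and 7.36 ± 2.70 in T-labelled lines, a difference of 1.49 (SE 1.70, limma adjusted p = 0.9999). Without CL-1 it was 0.21 (SE 1.41, 95% interval -4.00 to 4.43, limma adjusted p = 0.976).

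MTF1 differed by 0.14 between B-labelled and T-labelled lines (SE 0.17, limma adjusted p = 0.9999), and by 0.08 without CL-1 (95% interval -0.31 to 0.47). The ranges of the groups overlapped for MT2A and MT1E, whose highest lines were T-labelled (CLGL-90 for MT2A and CLL-1390 for MT1E). For MTF1 both B-labelled values (8.20 and 8.23) were above the 3 T-labelled ones (7.97 to 8.18), as in 6.58% of tested probe sets. These p-values measure the spread between lines only, and the intervals for the metallothioneins are too wide to show that B-labelled and T-labelled lines are alike.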

How the data were processed

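Total RNA (Trizol, RIN above 9 per the labels) was labelled with biotin and measured on Affymetrix canine arrays, 1 per line. Values were deposited as log2 intensities, 1 per probe set, which the authors made with GCRMA (background correction, normalization and summary), per the submitters' processing notes; its version is not given in the sources used here. The number of arrays limits precision.

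The table holds 43035 probe sets, 111 of them Affymetrix controls that entered no test. Among the 42924 for dog transcripts, 29254 had 1 symbol, 439 had several and were not used for genes, and 13231 had none in the annotation. A probe set was tested where 2 or more arrays reached log2 5 (36661, with those of MT2A, MT1E and MTF1 among them). The brightest probe set on average stood for its gene, and 14162 of 15115 genes were tested. Neighbours came from the gene table of UU_Cfam_GSD_1.0, used for names and gene order only.

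B-labelled lines (2) and T-labelled lines (3, with CLGL-90 counted as T) were set against each other in a two-sided test with limma 3.58.1 (R 4.3.3); p-values were adjusted by Benjamini-Hochberg over all tested probe sets, at a threshold of 0.05, and the script was tested on simulated data. CL-1 was described without a test. Named were the members, up to 4 genes per list by difference of CL-1 from the median of the others, every neighbour with a probe set, and the 5 genes most like each member, of which 1 is not reported here. The members and lists were chosen with earlier results of these data known. Alternatives covered filters, scaling, floors, gene summaries and left-out lines. Sequences of the genes were not used here.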

Additional observations from a re-analysis of the deposited data

How the results depend on the processing

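CL-1 was the lowest line for MT2A and MT1E by the choice of members, and neither a floor of log2 6 nor leaving out another line could change that. With the floor CL-1 minus the median of the others was -5.47 for MT2A and -2.85 for MT1E, and measured from the nearest other line the differences were -5.70 for MT2A, -2.26 for MT1E and -0.13 for MTF1. MTF1 was at -0.12 with centred arrays. Leaving out 1 of the other lines gave differences of -7.11 to -6.24 for MT2A, -4.98 to -3.08 for MT1E and -0.24 to -0.21 for MTF1. Probe sets at least 2 below every other line in CL-1 numbered 126, against 432 at a gap of 1 and 63 at a gap of 3, and 152 to 221 without 1 other line (221 without CLGL-90, 203 without CLL-1390); fewer lines make the condition easier to meet. Among the 77 genes of the 7 other lists, 9 to 12 were at least 1 above and 1 to 2 at least 1 below without 1 other line (8 and 1 with all), and 3 were above at a gap of 2.

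In limma the count of 5 probe sets between B-labelled and T-labelled lines was 3 without a filter, 3 with centred arrays, 14 with a filter at log2 7, 15 with an intensity trend and robust prior, and 0 with CLGL-90 as its own group (1607 at an unadjusted p under 0.05) or without any 1 line (1186 to 2108 unadjusted). MT2A, MT1E and MTF1 passed in none of these. Without 1 line the MT2A difference ran from -0.36 (without CL-1) to 3.28, that of MT1E from 0.21 to 2.90 and that of MTF1 from 0.08 to 0.19. The causes were not tested. No paired analysis was possible because the 5 samples were different lines with 1 array each. Signals near the controls for non-dog sequence limit what can be said of MT2A and MT1E in CL-1. They show a bound on the signal of 1 probe set per gene, not the absence of transcript. Whether these probe sets respond in CL-1 was not tested.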
